A study of Homo sapiens with 6 samples.

Results

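The genes described here belong to 1 antigen display system: the MHC class I heavy chain gene HLA-C, the light chain gene B2M and the transactivator gene NLRC5. They were taken by name from a deposited table of SETD8 knockout against control, and 3 of 3 were found among its 7983 genes. They were chosen by their normalized counts and fold changes in this same comparison, so their own values are given as a description, with no test. RNA was sequenced from Kasumi-1, a human acute myeloid leukaemia cell line with the t(8;21) translocation that joins RUNX1 to RUNX1T1. The knockout libraries, labelled sgSETD8, came from cells in which CRISPR/Cas9 had been aimed at SETD8, whose current symbol is KMT5A and whose product methylates a lysine of histone H4 (3 libraries). The control libraries, labelled sgNT and WT, came from the same line (3 libraries). Both groups were grown in RPMI medium with fetal bovine serum, streptomycin and penicillin. The labels do not say whether the cells were pooled or 1 clone, nor whether the numbers mark separate cultures or guides. The p-values therefore reflect only how far these 6 libraries scattered, and that scatter may be technical.

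MHC class I molecules carry short peptides from inside a cell to its surface, where CD8 T cells and natural killer cells read them. Each consists of a heavy chain, encoded by genes such as HLA-C or HLA-E, and the invariant light chain beta-2-microglobulin, encoded by B2M, without which classical heavy chains do not leave the endoplasmic reticulum stably. NLRC5, a protein of the NLR family induced by interferon-gamma, enters the nucleus and raises transcription of class I genes through factors bound to a promoter module of S, X and Y boxes (the SXY module), much as its relative CIITA does for class II genes.

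All values are the authors' normalized read counts, and log2 differences are knockout minus control on the log2(value + 1) scale. No listed gene has an unadjusted p above 0.049998 in the authors' deposited table, and genes outside it were not analysed here. Tests took in 7516 genes, those averaging 10 or more. Of these, 94.1% were called, 47.3% higher and 46.7% lower (limma-trend, Benjamini-Hochberg adjusted p below 0.05), with a median log2 difference of 0.14. Reads in the listed genes ran from 10966349 to 12557974 per library. The targeted gene KMT5A read 880, 933 and 939 in knockout libraries and 1191, 1212 and 1255 in control libraries. Of 13 blast markers written, 12 were in the table, of which 8 rose and 2 fell, with a summed level of 66874 to 68948 in knockout libraries and 88226 to 91269 in control libraries. That sum was carried by KIT, a growth factor receptor, at 43551 ± 793 in knockout and 60704 ± 955 in control (SD, n = 3 each), and MPO, a myeloid granule enzyme, at 1541 ± 27.3 and 12254 ± 373, the listed markers that fell. The granule proteins AZU1, at 305 ± 56.6 and 26.3 ± 5.57, and ELANE, at 35.7 ± 11.7 and 8.24 ± 3.64, rose, as did CD33 and ANPEP, while CD34, at 7818 ± 85.1 and 7153 ± 283, was not called. B cell markers were also listed, 5 of 6, and all 5 rose, with a summed level of 1979 to 2155 in knockout libraries and 983 to 1221 in control libraries. Of 7 monocyte, macrophage and dendritic cell markers only LYZ was listed, at 22.4 to 57.3 in knockout and 0 to 4.86 in control. Of 4 erythroid markers 0 were listed. The part of these markers in the values below was not tested.

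B2M was the most abundant of the 3 genes and was 2.31 times higher in knockout cells. It read 18178, 17271 and 15303 in the knockout libraries and 7370, 7180 and 7456 in the control libraries. Every knockout library lay above every control library, and the lowest knockout value was more than 2 times the highest control value. The means were 16918 ± 1470 in knockout and 7335 ± 141 in control (SD, n = 3 each) and the log2 difference was 1.20 (SE 0.06). Among tested genes, 6.11% had a larger log2 difference. In bulk RNA, more B2M RNA per cell and a larger share of cells carrying it cannot be told apart. B2M (ENSG00000166710) lies on the forward strand of chromosome 15, 44711487 to 44718877, hg38.

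HLA-C, which encodes a classical heavy chain that is also a ligand of killer cell immunoglobulin-like receptors, was about 2 times higher. Its values were 2112, 1984 and 1703 in the knockout libraries and 926, 1031 and 897 in the control libraries. The groups did not overlap, and the spread within each was small beside the gap. The means were 1933 ± 209 in knockout and 951 ± 70.4 in control (SD, n = 3 each), a ratio of 2.03 and a log2 difference of 1.02, exceeded by 8.25% of tested genes. HLA-C (ENSG00000204525) lies on the reverse strand of chromosome 6, 31268749 to 31272130, hg38. In GENCODE release 29 the model of HLA-B, on the same strand, runs from 31269491 to 31357188 and overlaps it, so reads there could be counted to either or to none. HLA-B is not in the table. Of the 50-base stretches of the longest coding HLA-C transcript, 6.71% also occur in a transcript of another gene, against 0% for B2M and 0% for NLRC5. Class I heavy chain genes are among the most variable human genes, and how well reads from this line's alleles aligned to the reference was not tested.

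NLRC5 was also higher in every knockout library. It read 1727, 2075 and 2075 in the knockout libraries and 978, 1083 and 1057 in the control libraries. The groups did not overlap, with the lowest knockout library still well above the highest control library. The means were 1959 ± 201 in knockout and 1039 ± 54.8 in control (SD, n = 3 each), a ratio of 1.88 and a log2 difference of 0.91, exceeded by 10.1% of tested genes. NLRC5 (ENSG00000140853) lies on the forward strand of chromosome 16, 56989485 to 57083531, hg38. A pseudogene and an antisense gene lie within it on the other strand, and how strand entered the counting was not tested. Groups did not overlap with knockout higher for 48.0% of tested genes and with knockout lower for 47.4%, so non-overlap is no mark of these 3 genes. The authors' deposited table gave log2 fold changes of 1.21 for B2M, 1.02 for HLA-C and 0.91 for NLRC5.

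**Figure D1:**
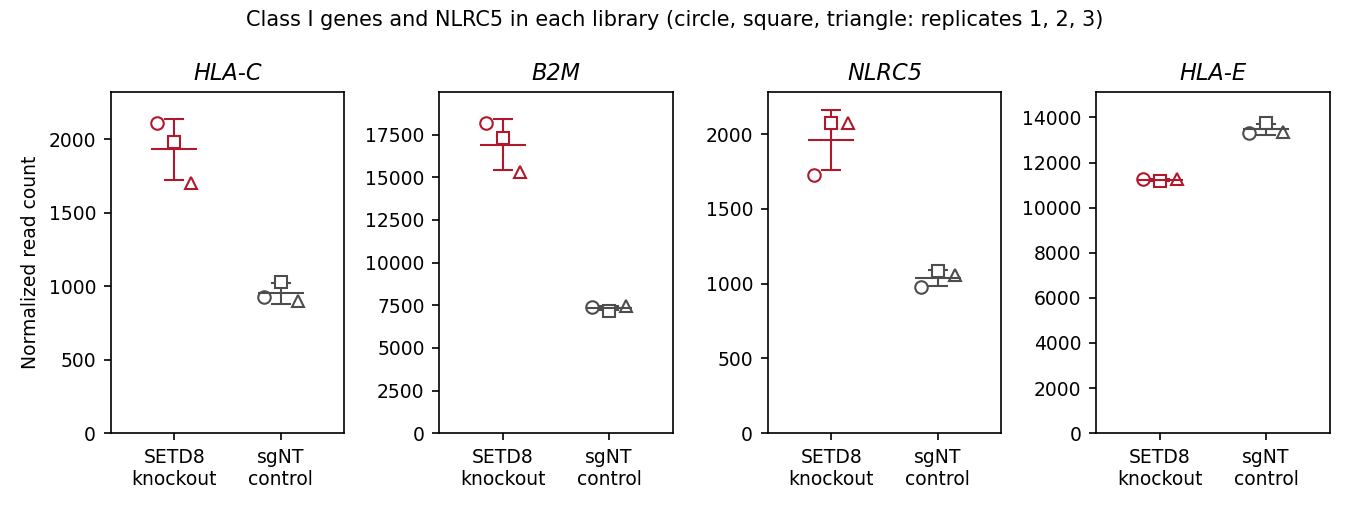
Normalized read counts (vertical axes, from 0) of HLA-C, B2M, NLRC5 and HLA-E in each library, SETD8 knockout left and sgNT control right; bars are mean and SD, n = 3 each. Knockout libraries sit above all control libraries for the first 3 genes, and below them for HLA-E, at 11222 ± 50.9 against 13474 ± 243.

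HLA-E moved against HLA-C and B2M. HLA-E, the non-classical chain that shows leader peptides of other heavy chains to the NKG2A receptor of natural killer cells, read 11250, 11163 and 11252 in knockout libraries and 13323, 13754 and 13345 in control libraries. It fell, with a log2 difference of -0.26 (SE 0.05, limma-trend adjusted p = 3.43e-04), and its groups did not overlap. HLA-C and HLA-E, both class I heavy chain genes, thus lay on opposite sides of 0. Of 4 heavy chain genes written besides HLA-C, only HLA-E was listed, and the others have no value here. HLA-W, a class I pseudogene, stood at 16.5 ± 10.7 in knockout and 4.26 ± 4.00 in control and was not called (limma-trend adjusted p = 0.072).

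Per kilobase of the table's gene model, HLA-E stood above HLA-C in both groups, and by less in knockout. HLA-E was at 3772 ± 17.1 normalized reads per kilobase in knockout and 4529 ± 81.7 in control, and HLA-C at 771 ± 83.3 and 379 ± 28.1 (SD, n = 3 each). B2M was at 2783 ± 242 in knockout and 1207 ± 23.2 in control, and NLRC5 at 158 ± 16.2 and 83.9 ± 4.42. By these gene-model lengths the order of levels was HLA-E, B2M, HLA-C and NLRC5 in both groups, with gaps between neighbours wider than their spread. The longest coding transcript of B2M has 1705 bases, against 6079 in its gene model. For HLA-E these are 2601 and 2975 bases. The B2M level, its place in the order and its ratios below therefore depend on the length used. An order by transcript length was not worked out. The HLA-C level divided by the HLA-E level was 0.223, 0.211 and 0.180 in knockout libraries and 0.0825, 0.0889 and 0.0797 in control libraries. The B2M level divided by the HLA-E level was 0.791, 0.757 and 0.666 in knockout libraries and 0.271, 0.255 and 0.273 in control libraries. HLA-C and B2M were chosen for their higher values in this comparison, so these ratios restate that choice and are given as levels only. The B2M level divided by the HLA-C level was 3.55, 3.59 and 3.71 in knockout libraries and 3.28, 2.87 and 3.43 in control libraries. The ratios cover RNA of these genes only.

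**Figure D2:**
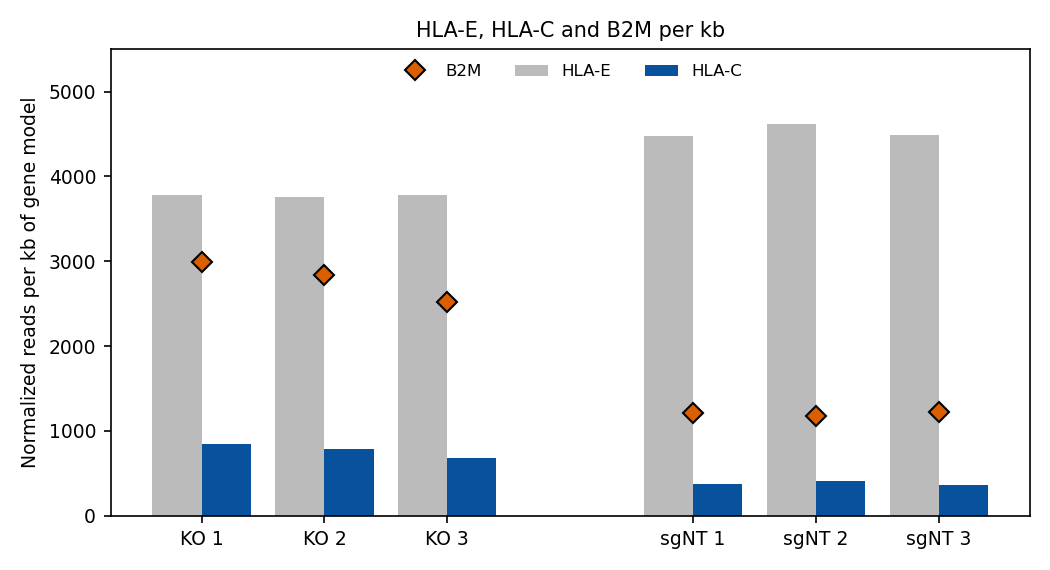
Normalized reads per kilobase of gene model (vertical axis, from 0) for HLA-E and HLA-C as bars side by side and B2M as diamonds, in the 3 knockout libraries (KO) on the left and the 3 sgNT control libraries on the right. HLA-C and B2M are taller in every knockout library, and HLA-E, at 3772 ± 17.1 in knockout and 4529 ± 81.7 in control, is shorter.

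Within the knockout group the structural chains and NLRC5 did not vary alike. HLA-C lay 0.13 above its group's log2 mean in replicate 1, 0.04 above in replicate 2 and at -0.18 in replicate 3, and B2M lay at 0.11, 0.03 and -0.14. NLRC5 lay at -0.18, 0.09 and 0.09. HLA-C and B2M were thus highest in the knockout library where NLRC5 was lowest, while HLA-E lay at 0.0037, -0.0076 and 0.0039. The control libraries differed in this. In control replicates 1, 2 and 3, HLA-C lay at -0.04, 0.12 and -0.08 and NLRC5 at -0.09, 0.06 and 0.03. B2M lay at 0.01, -0.03 and 0.02, lowest in replicate 2, where HLA-C and NLRC5 were both highest. Median deviations in the knockout libraries were 0.06, 0.01 and -0.06 for the 1504 shortest tested genes and -0.04, 0.01 and 0.04 for the 1503 longest. The part of gene length in the spread of the members was not tested. Between the groups, the shortest, up to 2780 bases, had a median log2 difference of 0.35, and the longest, from 8376 bases, one of -0.28. By length of the gene model, HLA-C, with 2507 bases, belongs to the first of these and NLRC5, with 12386 bases, to the second. B2M, with 6079 bases, belongs to neither. The longest coding transcript of B2M has 1705 bases, so its place depends on the length used.

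Promoter sequence was available from RefSeq (GRCh38.p14, 250 bases before to 50 after each start) for 2 of the 3 genes, HLA-C and B2M. They are shown because both were higher together with NLRC5, whose known route to class I promoters is the SXY module. Each stretch below ends before the first base of the GENCODE gene model. Capitals mark TGACG and ATTGG, cores like those of X and Y boxes, where they lie 18 to 23 bases apart in this order, and in B2M also GAAA followed after NN by GAAA, a pattern like the interferon-stimulated response element.
HLA-C (chr6:31272131-31272342, reverse strand): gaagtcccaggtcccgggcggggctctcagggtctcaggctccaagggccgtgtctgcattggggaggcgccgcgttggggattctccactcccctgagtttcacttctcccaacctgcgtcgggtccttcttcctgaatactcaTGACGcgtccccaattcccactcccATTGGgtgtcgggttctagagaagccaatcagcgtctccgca
B2M (chr15:44711267-44711486, forward strand): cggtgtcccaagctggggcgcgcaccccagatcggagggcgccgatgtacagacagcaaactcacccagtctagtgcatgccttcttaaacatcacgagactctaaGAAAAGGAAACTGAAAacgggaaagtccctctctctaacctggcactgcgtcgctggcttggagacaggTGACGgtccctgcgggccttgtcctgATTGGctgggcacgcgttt
The pair was found on the gene's own strand in both, with a gap of 20 bases in HLA-C and 21 bases in B2M. TGACG began 105 bases before the RefSeq start of HLA-C and 75 bases before that of B2M. Searched on both strands, the pair occurred in 103 of 35116 promoters, or 0.293%. Among tested genes with a promoter entry, 35 held the pair, both members included, of which 21 were called higher and 13 lower, with a median log2 difference of 0.34. Over all 5608 tested genes with an entry, 2612 were called higher and 2661 lower, with a median of -0.13. HLA-C and B2M were chosen for their higher values, so their part in the 21 and in the median of 0.34 restates that choice. The pair was chosen with the HLA-C and B2M sequences in view, so its presence there is a description and not a site.

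The pattern GAAA, NN, GAAA was found in B2M and not in the HLA-C window, and in most listed genes of the loading and immunoproteasome lists that had an entry. Only this exact pattern was searched, so looser forms of the response element in the HLA-C window were not looked for. Of the 12 listed class I, loading and immunoproteasome genes, members included, 9 had an entry. Of these, 7 held it on either strand in at least 1 entry, with PSMB8 holding it in 1 of 2. Counted by entry and not by gene, 3.57% of all 35116 promoters held it. The 30-base stretches below are on each gene's own strand with matches in capitals (TTTC, NN, TTTC where it reads on the other strand). Each was set around its match, so their likeness there restates the search.
B2M (chr15:44711366-44711395): actctaaGAAAAGGAAACTGAAAacgggaa
TAP2 (chr6:32838778-32838807): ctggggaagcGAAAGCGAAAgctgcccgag
TAPBP (chr6:33314076-33314105): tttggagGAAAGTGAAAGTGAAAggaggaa
PSMB8 (chr6:32844032-32844061): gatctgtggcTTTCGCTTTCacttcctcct
PSMB10 (chr16:67936852-67936881): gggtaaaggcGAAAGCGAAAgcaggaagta
PSME1 (chr14:24136189-24136218): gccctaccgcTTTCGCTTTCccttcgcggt
PSME2 (chr14:24146619-24146648): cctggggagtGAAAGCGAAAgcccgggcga
Among the 233 tested genes whose promoters held GAAA, NN, GAAA, 109 were called higher and 111 lower, with a median log2 difference of -0.17, so holding the pattern went with no one direction.

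The listed genes that load class I peptides were higher, as HLA-C and B2M were. Of 7 transport and loading genes written, 4 were in the table and all 4 rose, with a median log2 difference of 0.61. Over all tested genes 94.1% were called, 47.3% higher and 46.7% lower, so a listed gene was likely to be called. The genes written but not listed have no value here. TAP2, a chain of the peptide transporter, was at 901 ± 41.1 in knockout and 594 ± 17.9 in control (SD, n = 3 each), and TAPBP, the loading factor tapasin, at 2753 ± 161 and 1886 ± 69.9. The chaperone CALR (calreticulin) was at 31462 ± 1278 and 20425 ± 92.0, and PDIA3, the oxidoreductase of the loading complex, at 5352 ± 181 and 3347 ± 42.8. Log2 differences ran from 0.54 for TAPBP to 0.68 for PDIA3, below those of all 3 members, with limma-trend adjusted p of at most 2.28e-06. CALR and PDIA3 also fold many other glycoproteins, so they are not specific to class I.

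All 4 listed genes of the 5 written for the immunoproteasome, the form of the proteasome that trims peptides suited to class I, and its PA28 activator rose, with a median log2 difference of 0.43. Over all tested genes, 47.3% were called higher and 46.7% lower. The catalytic subunit PSMB8 was at 1351 ± 122 in knockout and 960 ± 60.2 in control (SD, n = 3 each), and PSMB10, another catalytic subunit, at 221 ± 20.8 and 140 ± 24.2. PSME1 and PSME2, the PA28 subunits, had log2 differences of 0.32 and 0.38. Adjusted p was at most 0.0021 for these 4 genes (limma-trend). The standard catalytic subunits PSMB5 and PSMB6 rose as well, by 0.66 and 0.43 on the log2 scale, so the increase was not limited to the immune form. Among 7 listed peptidases that trim or destroy peptides, 5 rose and 1 fell. LAP3, a leucine aminopeptidase, had a log2 difference of 0.74, the endoplasmic reticulum aminopeptidase ERAP2 had 0.38, and NPEPPS, a cytosolic aminopeptidase, had -0.66. THOP1, an oligopeptidase of the cytosol, rose by 0.45.

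**Figure D3:**
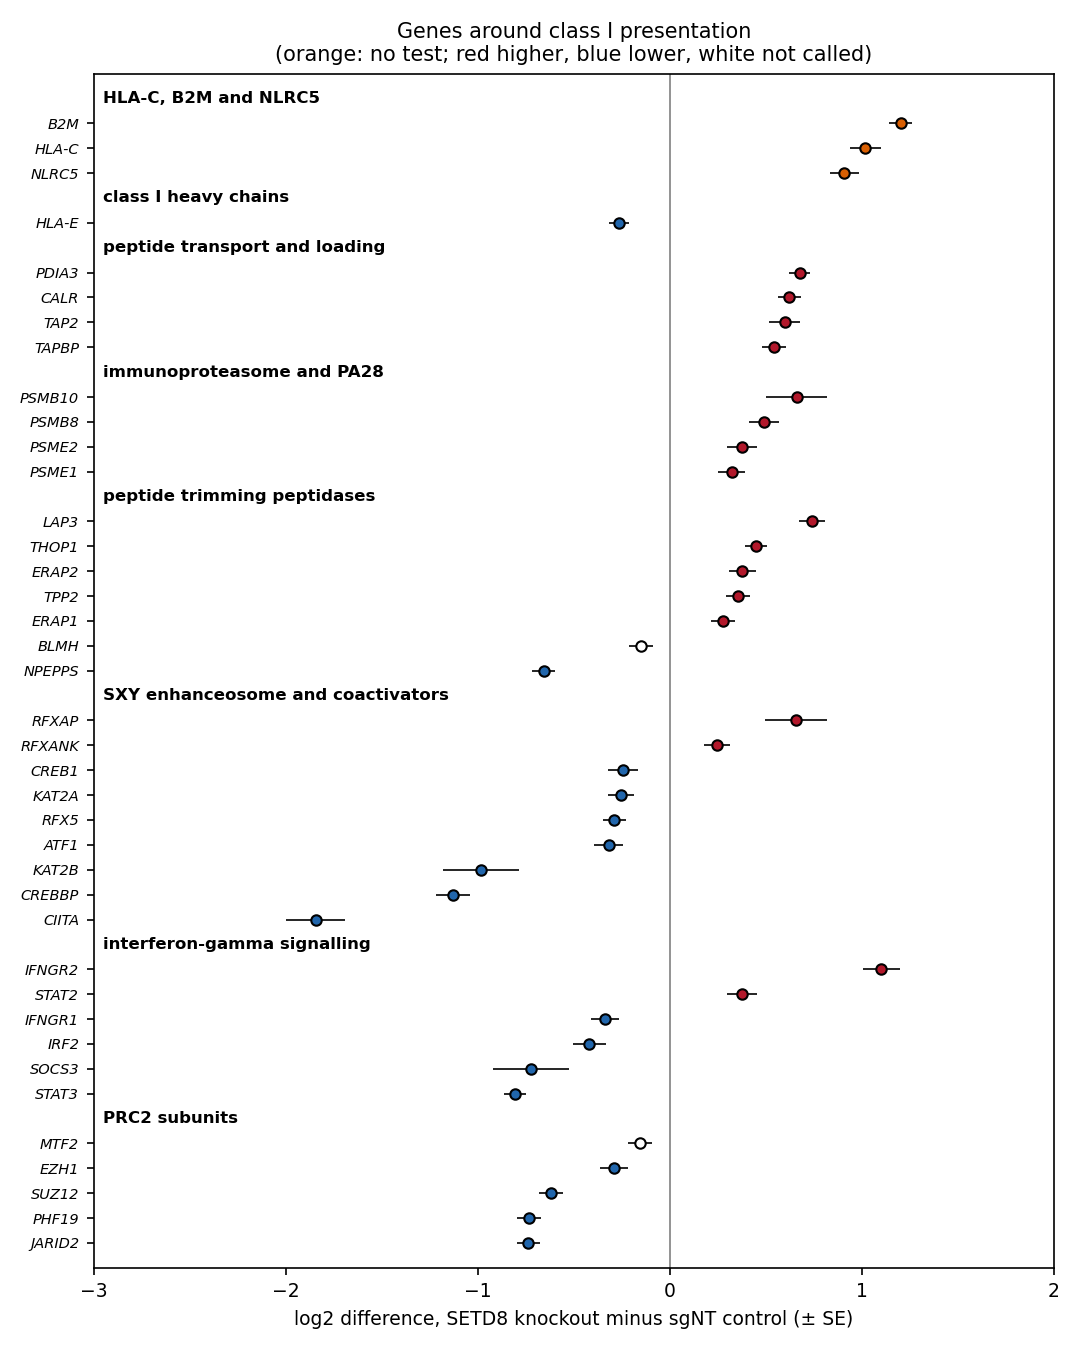
Log2 difference between SETD8 knockout and sgNT control with its SE (horizontal axis) for HLA-C, B2M and NLRC5 in orange, shown without a test, and for tested genes of 7 lists around them; red genes were called higher, blue lower and white neither. Loading and immunoproteasome genes lie right of 0. Left of it lie 7 of 9 enhanceosome and coactivator genes, CIITA among them, and 4 of 6 interferon-gamma signalling genes.

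Among the DNA-bound factors and coactivators of the SXY module, CIITA counted with them, more listed genes fell than rose. Of 13 genes written, CIITA included, 9 were listed, of which 2 rose and 7 fell, with a median log2 difference of -0.29. Over all tested genes 47.3% were higher and 46.7% lower. RFX5, the DNA-binding chain of the RFX complex, was at 1895 ± 60.6 in knockout and 2317 ± 97.1 in control (SD, n = 3 each), while its partners RFXAP and RFXANK rose by 0.66 and 0.24 on the log2 scale. ATF1 and CREB1, which bind the X box region, fell by 0.32 and 0.24 on the log2 scale. CREB1 lost its call without knockout replicate 1 (log2 difference -0.20, limma-trend adjusted p = 0.077) and without control replicate 3 (-0.21, adjusted p = 0.093). The acetyltransferase CREBBP was at 609 ± 85.2 and 1324 ± 73.7, and KAT2B at 83.3 ± 11.3 and 168 ± 44.4. KAT2A, another acetyltransferase, fell by 0.25 on the log2 scale.

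CIITA, the NLR family transactivator of class II genes, moved against NLRC5. It read 80.3, 74.5 and 85.9 in knockout libraries and 292, 285 and 292 in control libraries, with a log2 difference of -1.84 (SE 0.15, limma-trend adjusted p = 1.91e-09). The class II chain HLA-DRA was at 1.28 ± 1.42 in knockout and 115 ± 16.7 in control. CD74, the invariant chain of class II, went the other way, at 1270 ± 128 and 543 ± 16.4. Among other listed NLR genes, NLRC4, an inflammasome sensor, rose to 141 ± 34.5 in knockout, against 48.1 ± 1.36 in control, and NLRP1 also rose, while NLRC3 fell by 0.59 on the log2 scale.

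Genes of the interferon-gamma signalling list moved in both directions. The list holds receptor chains and feedback inhibitors alike, so its counts mix parts that carry the signal with parts that restrain it. Of 14 written, 8 were listed and 6 tested, of which 2 rose and 4 fell, with a median log2 difference of -0.38, beside 47.3% higher and 46.7% lower among all tested genes. The receptor chain IFNGR2 rose to 1008 ± 133 in knockout, against 468 ± 45.0 in control, and its partner chain IFNGR1 fell to 920 ± 56.7, against 1160 ± 9.53. STAT2 rose by 0.38 on the log2 scale, and STAT3, IRF2 and SOCS3 fell by 0.81, 0.42 and 0.72. IRF8, a myeloid interferon regulatory factor, was below the level tested, at 12.9 to 22.9 in knockout libraries and 0 to 0.972 in control libraries, and the feedback inhibitor SOCS1 was at 0 to 1.04 and 2.04 to 11.9.

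Interferon-stimulated genes also moved in both directions. Of 37 written, 16 were tested, of which 9 rose and 4 fell, a share of higher calls near the 47.3% of all tested genes, with a median log2 difference of 0.53. Among those averaging 50 or more, the most changed were BST2, the virion tether tetherin, at 2549 ± 121 in knockout and 1187 ± 71.2 in control, and ISG20, an exonuclease, at 34.2 ± 3.96 and 70.5 ± 11.4 (SD, n = 3 each). IFIT3 and IFIT1, proteins that bind foreign RNA or its partners, rose by 0.84 and 0.75 on the log2 scale.

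Further lists cover the breakdown of class I molecules and regulators of transcription. Of 15 genes written for turnover and endoplasmic reticulum degradation, 8 were tested, of which 5 rose and 2 fell, with a median log2 difference of 0.33. TMEM129, a ubiquitin ligase used by cytomegalovirus to destroy class I chains, was at 914 ± 33.7 in knockout and 533 ± 37.4 in control, and the ligase SYVN1 at 980 ± 26.0 and 631 ± 70.4 (SD, n = 3 each). UBE2J1, of the same degradation route, rose by 0.57. IRGQ, which directs class I molecules to autophagy, fell by 0.49 on the log2 scale, a call lost without control replicate 1 (log2 difference -0.38, limma-trend adjusted p = 0.053). Of 8 genes written for PRC2, the methyltransferase complex that can silence class I genes in tumours, 5 were tested. Of these, 0 rose and 4 fell, with a median of -0.62, beside 47.3% higher and 46.7% lower over all tested genes. The part of PRC2 in the class I levels was not tested. JARID2 was at 2189 ± 113 and 3646 ± 69.9, PHF19 at 1670 ± 68.6 and 2777 ± 101, and SUZ12 at 2273 ± 109 and 3491 ± 231. EZH1 fell by 0.29 on the log2 scale. Of 6 NF-kB genes written, 3 were tested, of which 0 rose and 2 fell, NFKBIA by 0.51 and NFKB2 by 0.34 on the log2 scale.

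Few class I-like molecules and class I receptors were in the table. Of 18 class I-like genes written, 4 were tested, of which 3 rose and 1 fell. FCGRT, the neonatal Fc receptor chain that also pairs with beta-2-microglobulin, was at 1012 ± 72.8 in knockout and 731 ± 60.2 in control (SD, n = 3 each). PROCR, the endothelial protein C receptor, rose by 0.51. MICA, a stress ligand of NKG2D and the nearest listed gene beyond HLA-C, was at 270 ± 14.7 and 386 ± 22.8. ULBP2, another NKG2D ligand, had a log2 difference of 0.50 at a limma-trend adjusted p of 0.047, which missed the threshold in 7 of the alternatives tried, where it ran from 0.053 to 0.41. Of 19 receptors for class I written, 3 were tested, LILRA1, LILRA2 and LILRB1, and all 3 rose, and LILRB1, an inhibitory receptor, was at 160 ± 11.4 and 93.0 ± 8.83. LILRB4, below the level tested, was at 0 in all 3 knockout libraries and at 6.13, 1.94 and 3.96 in control libraries. Over all 201 genes written around the class I system, 81 were tested, with 43 higher, 29 lower and a median log2 difference of 0.36. Among all tested genes 47.3% were higher and 46.7% lower, with a median of 0.14, so the share of higher calls in the lists lay near that of all genes.

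Genes near the members moved in both directions. For comparison, 47.3% of all tested genes were called higher and 46.7% lower, with a median log2 difference of 0.14. Around HLA-C, 30 other tested genes started within 1 Mb, with 11 higher, 14 lower and a median log2 difference of -0.20. The nearest listed genes, TCF19, a growth-related factor, and MICA, both fell, by 0.27 and 0.51 on the log2 scale. Around NLRC5, 18 genes had 5 higher and 12 lower, with a median of -0.32, and its nearest listed neighbours HERPUD1, of endoplasmic reticulum degradation, and CPNE2, a copine, fell by 0.47 and 0.28 on the log2 scale. On chromosome 16 as a whole 102 of 346 other tested genes rose and 227 fell. Chromosome 6 had 183 of 366 higher and 155 lower, and chromosome 15 had 131 of 251 higher and 103 lower. Around B2M, 8 genes had 5 higher and 3 lower, with a median of 0.68. The nearest listed gene before it, SPG11, a lysosome gene, fell by 0.36 on the log2 scale, and the next after it, GATM, a creatine synthesis enzyme, rose by 1.82. B2M's neighbourhood depended on the window: within 0.5 Mb both of 2 tested genes fell, with a median of -0.32. Within 5 Mb of B2M, 37 tested genes had 26 higher and 8 lower, with a median of 0.46. PDIA3, named above as a loading gene, was 1 of the 5 higher neighbours of B2M within 1 Mb. Around HLA-C the median was 0.13 within 5 Mb. Within 1 Mb, 1 neighbour of HLA-C, 1 of B2M and 2 of NLRC5 rose by more than the member was higher. These neighbours were DDR1, GATM, MT2A and MT1X, of which DDR1 and both metallothionein genes were picked with their values in view. Among all tested genes, 8.25% had a larger log2 difference than HLA-C, 6.11% than B2M and 10.1% than NLRC5. The members were chosen for their higher values, so their place above most neighbours restates that choice. MT2A was at 3268 in knockout and 792 in control on average, while DDR1 was low, at 24.2 and 8.69, and lost its call without knockout replicate 2 or 3 or control replicate 2 (limma-trend adjusted p = 0.11 to 0.22). In the other direction, 2 neighbours of HLA-C, 0 of B2M and 6 of NLRC5 fell by more than the member was higher. Those near HLA-C were the heat shock genes HSPA1A, at a log2 difference of -1.82, and HSPA1B, at -2.53, near-identical copies whose reads the counting could split, also picked with their values in view.

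**Figure D4:**
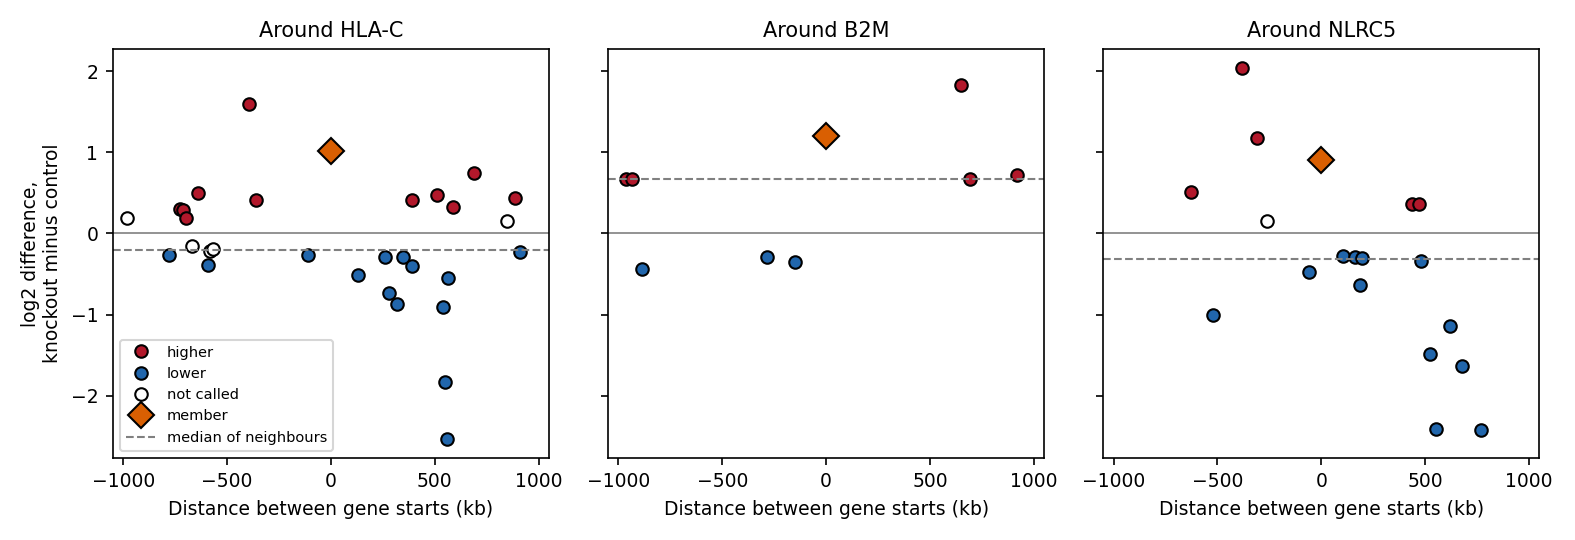
Log2 difference between SETD8 knockout and sgNT control (vertical axis) of tested genes that start within 1 Mb of HLA-C, B2M and NLRC5, against the distance between gene starts in kb; diamonds are the members, dots are neighbours called higher (red), lower (blue) or neither (white), and dashed lines are the neighbours' medians. HLA-C and NLRC5 stand above medians of -0.20 and -0.32, and B2M above one of 0.68. The members were chosen for their higher values, so this place restates that choice.

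The genes most correlated with the members over the 6 libraries came from other pathways. Correlation takes no account of level or size of change. STIP1 had a log2 difference of 0.34 beside 1.02 for HLA-C, and TARDBP 0.33 beside 1.20 for B2M. RYR2 had 3.47 beside 0.91 for NLRC5. Likeness was taken over 6094 protein-coding genes averaging 100 or more. The highest Pearson correlations with HLA-C on the log2 scale were those of STIP1, a co-chaperone, MEST, an imprinted gene, and OAZ1, an antizyme of polyamine synthesis, at 0.998 to 0.999. For B2M they were TARDBP, an RNA-binding protein, YIF1B, of transport to the Golgi, and PTTG1, securin, all above 0.999. For NLRC5 they were RYR2, a calcium release channel, SETMAR, a methyltransferase fused to a transposase, and KIAA1147, at 0.998 to 0.999. Correlations above 0.95 were common, with 1198 genes for HLA-C, 1401 for B2M and 994 for NLRC5. The 6 points fall into 2 groups that share libraries and scaling, so these values rest mainly on the difference between knockout and control and are given with no test.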

How the data were processed

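RNA from 3 SETD8 knockout and 3 sgNT libraries of Kasumi-1 was selected on poly-T beads and made into libraries with a directional kit, per the labels' protocols. The submitters' processing notes name hg38, HISAT2 and DESeq2, with versions, counter and strand setting not given in the sources used here. Each gene has 1 value per library: the authors deposited normalized read counts per library, a signal equal to whole reads divided by a size factor; dividing by the value of 1 read gave whole numbers within 0.001 for 100% of values. For control 3 and knockout 2 that value, 0.991 and 0.993, is too near 1 to tell from rounding, so reads recovered there are less certain. They also deposited a log2 fold change and p-values. These show adjustment over 19860 genes, of which 7983 are listed, so all tests ran on genes already selected. All 7983 have the same coordinates in GENCODE release 29.

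R 4.3.3 and limma 3.58.1 were used for a two-sided limma-trend test of log2(value + 1), with Benjamini-Hochberg adjustment over 19860 genes. On simulated data of known change the test was checked first. Alternatives were TMM scaling, pseudocounts of 0.5 and 5, no filter or a minimum mean of 50, edgeR 4.0.16 quasi-likelihood and DESeq2 1.42.0 Wald tests on recovered reads, a replicate block, leaving out each library, adjustment over tested genes only, and windows of 0.5 and 5 Mb around members. The members and lists were chosen with earlier results of these data known. Named genes are the members, every listed gene of the heavy chain, loading, immunoproteasome, enhanceosome and interferon-gamma lists, up to 4 most changed called genes averaging 50 or more from other lists, nearest listed genes and the 3 most alike genes per member; other genes were named after their values were seen. Marker lists were for blasts, B cells, T and natural killer cells, monocyte-like cells, erythroid cells, and epithelial and fibroblast cells. Of 9 T and natural killer cell markers 2 were listed, with a sum of 1265 to 1517 in knockout and 1015 to 1059 in control, and of 6 epithelial and fibroblast markers 2, with a sum of 1888 to 2081 in knockout and 1282 to 1441 in control. Some genes of these lists are not reported here, and the list counts leave them out.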

Additional observations from a re-analysis of the deposited data

How the results depend on the processing

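The log2 differences of HLA-C, B2M and NLRC5 kept their sign and moved by less than 1 SD of the replicates under every scaling, pseudocount and tool tried, from 1.01 to 1.02 for HLA-C, 1.19 to 1.20 for B2M and 0.90 to 0.91 for NLRC5. Leaving out 1 library gave 0.95 to 1.11 for HLA-C, 1.15 to 1.27 for B2M and 0.87 to 1.00 for NLRC5. Genes called higher and lower numbered 3504 and 3662 with edgeR and 3363 and 3527 with DESeq2. The median of neighbours within 1 Mb was -0.20 around HLA-C, and turned to 0.13 with 5 Mb and -0.29 with 0.5 Mb. Around B2M it was 0.68, and turned to -0.32 with 0.5 Mb, which held 2 genes, and 0.46 with 5 Mb. The cause was not tested. Same-numbered libraries did not deviate together (correlations of 0.0086, -0.0033 and -0.050), so the numbers were not taken as pairs; the replicate block gave 3569 genes called higher and 3522 lower, and 44 higher and 30 lower in the lists around class I in place of 43 and 29. Depth is known for the listed genes only, which limits what can be said of genes with few reads. Of 122 genes named or listed around the members, CREB1, IFITM1, IRGQ, ULBP2 and DDR1 lost their call under at least 1 alternative and none reversed.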
